A study of Mus musculus with 16 samples.

Results

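Peaks of DNA single-strand breaks were examined at 7 genes of the naive pluripotency programme in mouse embryonic stem cells: Klf2, Klf4, Klf5, Tbx3, Nr5a2, Zfp42 and Fbxo15. They are 7 of 21911 protein-coding genes of GENCODE release M21 on the mm10 build. A peak was counted at a gene when it shared at least 1 bp with the gene body or the 5 kb on either side of it. This gave 65 peaks, of 103545 over 4 peak lists, and these merge into 31 regions.

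The method, SSB-seq, labels nicks in purified genomic DNA with digoxigenin-dUTP, which a bacterial DNA polymerase inserts during a short nick translation. Labelled fragments are then pulled down (IP) and sequenced beside unselected input DNA. The cells were of strain C57BL/6JRj and were kept in serum-free 2i medium with LIF. The 4 groups were Tdg-depleted cells (KO) given 5 nM talazoparib for 24 h, KO cells given DMSO, wild-type cells (WT) given talazoparib in the same way, and WT cells given DMSO. Each group had 3 IP libraries and 1 input library, 16 in all. The labels state that a Tdg minigene is excised with 4-hydroxytamoxifen. They attach that text to WT libraries as well, and say neither whether WT cells received the drug nor how many clones were used. For each group 1 pooled peak list was used, so there is no spread between replicates and no test between groups. Intervals below cover counting error only. KO and WT libraries were run on different flow cells, so genotype and flow cell cannot be told apart.

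In naive cells, LIF signalling through Stat3 and inhibition of the MEK and GSK3 kinases keep a set of transcription factors active. Klf2, Klf4 and Klf5 are zinc finger factors of the Krüppel-like family that bind GC-rich and CACCC-type DNA and support self-renewal. Tbx3 is a T-box factor, Nr5a2 (also Lrh-1) an orphan nuclear receptor that acts on Pou5f1, and Zfp42 (Rex1) and Fbxo15 are widely used markers of the undifferentiated state. TDG, a DNA glycosylase, removes oxidised forms of 5-methylcytosine at CpG sites and leaves an abasic site that is then cut. Talazoparib inhibits PARP1 and PARP2, which act at single-strand breaks, and holds them on DNA. The lists show where labelled fragments gathered and not RNA, so neither the loss of Tdg nor the cell type could be checked through expression.

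The lists held 23983 peaks for KO talazoparib, 35459 for KO DMSO, 15544 for WT talazoparib and 28559 for WT DMSO. The pooled IP totals lay between 66.4 and 87.0 M tags, and input totals between 24.5 and 38.1 M. Signal is given as the authors' normalized tag count, the IP tags in a peak per 10000000 IP tags. IP tag density, where used, is tags per bp over the genome mean of the same pooled library. A missing peak means that the region did not pass the authors' caller in that list, not that it held no tags. The lowest fold over input in every list was 4.00, and the smallest peak at these 7 genes had 2.80 normalized tags.

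All 7 genes carried at least 1 peak in KO DMSO, WT talazoparib and WT DMSO, while Nr5a2 and Zfp42 had none in KO talazoparib. Genes with a peak thus numbered 5 in KO talazoparib, 7 in KO DMSO, 7 in WT talazoparib and 7 in WT DMSO. The background over all protein-coding genes was 58.9% in KO talazoparib, 66.7% in KO DMSO, 48.8% in WT talazoparib and 60.9% in WT DMSO. The count in KO talazoparib is the closest of the 4 to its background. In WT DMSO the count rests partly on peaks of low fold. With a deposited fold of at least 6, 3 of the 7 genes kept a peak there. The median fold over the whole WT DMSO list was 5.15, the lowest of the 4 lists. The share of all genes that keep a peak at that fold was not computed.

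The genes held 11 peaks in KO talazoparib, 25 in KO DMSO, 15 in WT talazoparib and 14 in WT DMSO. In that order of lists, Klf2 had 3, 5, 3 and 2 peaks, Klf4 had 2, 2, 3 and 2, and Klf5 had 1, 2, 2 and 1. Tbx3 had 1, 5, 2 and 1 peaks, Nr5a2 had 0, 3, 2 and 2, Zfp42 had 0, 3, 1 and 2, and Fbxo15 had 4, 5, 2 and 4. KO DMSO, also the longest list, held the highest or joint highest number at every gene but Klf4. When each list was reduced to its 15544 best-scoring peaks, the counts at the genes became 7, 10, 15 and 7, and WT talazoparib was then the highest. With a fold of at least 6 they were 6, 15, 11 and 4.

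**Figure D1:**
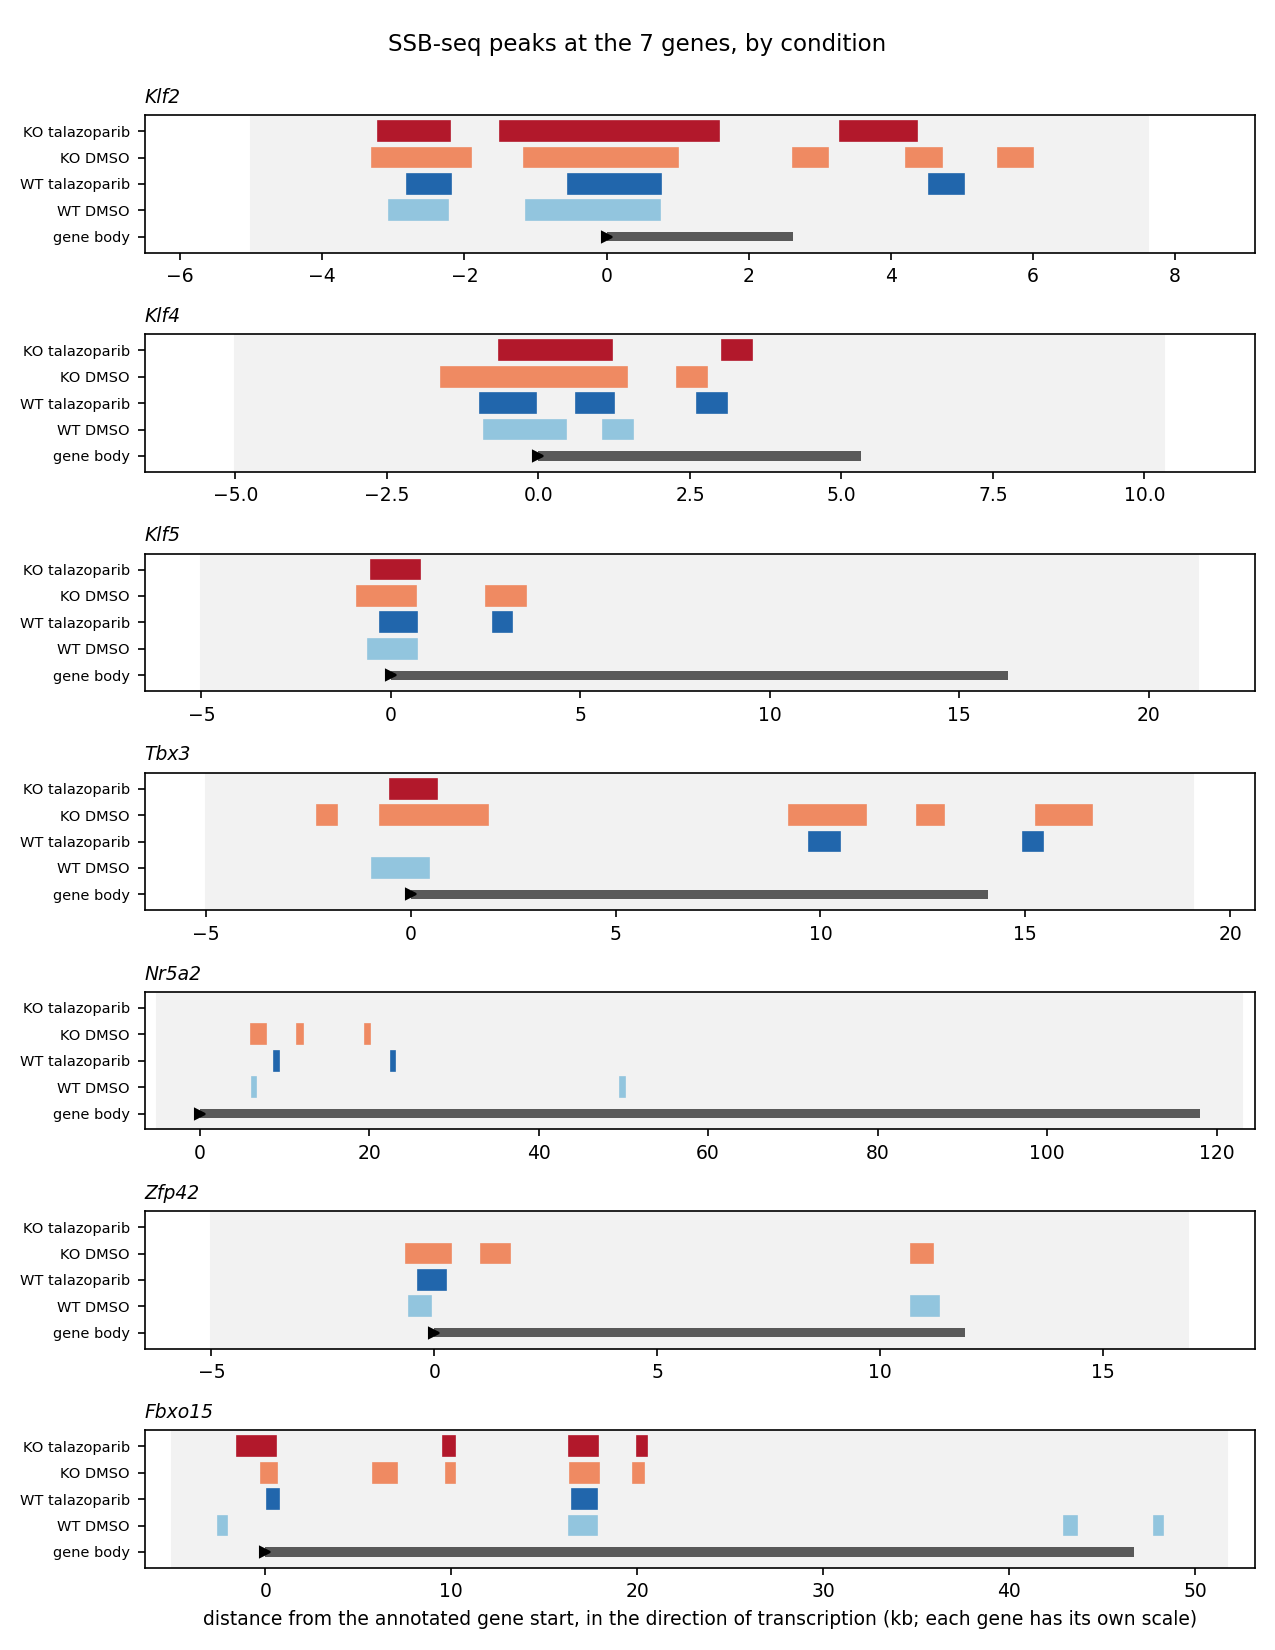
Peaks at each of the 7 genes by condition, drawn to scale as coloured bars against distance from the annotated gene start in kb, with transcription running to the right, the gene body as a dark bar and the counted window shaded. Peaks lie within 2 kb of the starts of Klf2, Klf4 and Klf5 in all 4 lists, and Nr5a2 has none that near its start in any list. The WT talazoparib peaks of Klf4 leave a gap over the start itself. Nr5a2 and Zfp42 have no peak in KO talazoparib.

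Most of the normalized tags at the 7 genes lay in peaks that span a transcript start. Within 2 kb of the annotated gene start, 5 of the 7 genes had a peak in KO talazoparib, 6 in KO DMSO, 5 in WT talazoparib and 5 in WT DMSO. The background over protein-coding genes was 43.5%, 53.6%, 34.5% and 44.9% in the same order of lists. Klf2, Klf4 and Klf5 were marked there in every list. Tbx3 lacked such a peak in WT talazoparib, Zfp42 in KO talazoparib, Fbxo15 in WT DMSO, and Nr5a2 in all 4. Peaks that span a transcript start of any isoform numbered 6 of 11 in KO talazoparib, 10 of 25 in KO DMSO, 6 of 15 in WT talazoparib and 5 of 14 in WT DMSO. They held 84.1%, 73.7%, 60.4% and 74.0% of the normalized tags at the genes. The same shares over all peaks of a list were not computed. In each list, an Fbxo15 peak counted here also spans the start of the neighbouring gene Timm21.

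RefSeq promoter sequence on GRCm38.p6, the assembly behind mm10, was matched for 4 of the 7 genes: Klf2, Klf4, Zfp42 and Nr5a2. Each stretch below lies upstream of the start, is written 5′ to 3′ on the gene's own strand, and has every CpG in capitals. They are shown because CpG is the context in which TDG acts, and because peaks lie at 3 of these 4 starts. The Klf2 stretch is chr8:72318862-72319032 (plus strand), Klf4 is chr4:55532476-55532675 (minus), Zfp42 is chr8:43307010-43307209 (minus) and Nr5a2 is chr1:136960449-136960648 (minus).
Klf2: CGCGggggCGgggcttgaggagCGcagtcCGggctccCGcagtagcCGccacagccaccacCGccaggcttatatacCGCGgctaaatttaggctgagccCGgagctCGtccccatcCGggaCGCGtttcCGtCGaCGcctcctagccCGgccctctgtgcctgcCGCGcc
Klf4: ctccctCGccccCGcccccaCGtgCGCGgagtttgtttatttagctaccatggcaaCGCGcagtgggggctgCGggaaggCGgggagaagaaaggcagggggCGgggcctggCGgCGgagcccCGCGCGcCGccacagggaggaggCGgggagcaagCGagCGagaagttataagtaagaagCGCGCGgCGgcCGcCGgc
Zfp42: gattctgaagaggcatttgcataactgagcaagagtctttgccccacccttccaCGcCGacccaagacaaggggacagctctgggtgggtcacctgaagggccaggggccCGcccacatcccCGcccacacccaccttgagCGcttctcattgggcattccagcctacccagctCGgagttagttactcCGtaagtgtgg
Nr5a2: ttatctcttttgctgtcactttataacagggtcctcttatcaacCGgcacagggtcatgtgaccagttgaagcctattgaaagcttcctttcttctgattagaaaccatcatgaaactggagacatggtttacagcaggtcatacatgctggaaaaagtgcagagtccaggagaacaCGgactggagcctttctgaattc

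The printed Klf2 stretch holds 21 CpG in 171 bp and lay wholly inside a peak in each list. The Klf4 stretch holds 25 CpG in 200 bp, all of it in a peak in KO talazoparib, KO DMSO and WT DMSO, and 175 bp of it in WT talazoparib. Zfp42 holds 7 CpG and was covered whole in KO DMSO and WT talazoparib, over 165 bp in WT DMSO and not at all in KO talazoparib. Nr5a2 holds 2 CpG, and no base of it lay in a peak of any list. Over the full RefSeq window, 250 bp before to 50 bp after the start, CpG numbered 32 for Klf2, 40 for Klf4, 11 for Zfp42 and 2 for Nr5a2. That was more than in 90.5%, 96.1%, 58.6% and 14.1% of 32851 mouse promoters, whose median was 7. Both genes marked here in all 4 lists are thus CpG-rich, which describes 4 genes and was not tested.

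Short motifs were counted on both strands of the same 300 bp windows. The letters CCNCNCCC, a loose form of the KLF box, occurred 4 times at Klf2, 9 times at Klf4, 4 times at Zfp42 and 0 times at Nr5a2, and are found in 49.5% of all promoters. GGGCGG, the GC box, which can share bases with it, occurred 2, 4, 2 and 0 times in that order of genes and is found in 35.7%. The octamer ATGCAAAT, the sequence read by POU factors such as Oct4, occurred at Zfp42 only among these 4, on the strand opposite to the one printed, and is found in 1.74% of promoters. CCAAT occurred at Zfp42 (37.4% of promoters) and TATAAA at Nr5a2 (13.6%). A match is a run of letters and does not show that a factor is bound there.

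Klf2, a factor that MEK inhibition stabilises, is the shortest of the genes, at 2.62 kb (chr8:72319033-72321656, plus strand). The peak at its start had 63.4 normalized tags in KO talazoparib, 51.0 in KO DMSO, 37.6 in WT talazoparib and 32.3 in WT DMSO. In normalized tags both KO lists were above both WT lists, but in IP tag density WT talazoparib was highest, at 7.62 times the mean. In every list this was the largest peak of the 7 genes by normalized tags. It also stood high within each list, above 99.1%, 98.6%, 98.7% and 98.6% of peaks. The KO talazoparib peak, chr8:72317540-72320618, held 421.0 IP tags (95% interval 382 to 463) and 21 input tags. It was 3078 bp long, against 1306 bp for the WT talazoparib peak, which held 315.0 IP tags (281 to 352).

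A further Klf2 region, centred at -2.60 kb (chr8:72315732-72317124), was found in all 4 lists. It had 16.5, 18.4, 5.97 and 7.76 normalized tags in KO talazoparib, KO DMSO, WT talazoparib and WT DMSO, so that KO again lay above WT. It is poor in CpG, with 1.36 per 100 bp, and 44.2% of it is soft-masked repeat. Downstream of the gene, at 4.16 kb from the start, a region was listed in KO talazoparib (13.1 normalized tags), KO DMSO (4.99) and WT talazoparib (3.40) but not in WT DMSO. The KO talazoparib and WT talazoparib peaks there do not overlap, and are joined through the KO DMSO peak. KO DMSO alone listed 2 more downstream peaks, of 6.51 and 3.98 normalized tags.

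Klf4, which acts downstream of LIF and Stat3, spans 5.32 kb (chr4:55527143-55532466, minus strand). Its start region, chr4:55530905-55534072, had 39.4 normalized tags in KO talazoparib, 50.9 in KO DMSO, 29.5 in WT talazoparib and 20.6 in WT DMSO. KO was above WT under both treatments, while talazoparib was below DMSO in KO and above it in WT. Both WT values are sums of 2 peaks, and the KO peaks are single. The WT talazoparib pair, of 18.9 and 10.6 normalized tags, leaves a gap over the annotated start itself. The region is the longest at the 7 genes, at 3168 bp, with 7.67 CpG per 100 bp. A weak intronic region at 2.9 kb had 3.61, 3.83 and 2.86 normalized tags in KO talazoparib, KO DMSO and WT talazoparib, and none was listed in WT DMSO. Its peaks in KO talazoparib and KO DMSO do not overlap each other and are joined only through the WT talazoparib peak.

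Klf5, the third Krüppel-like factor of the set, spans 16.3 kb (chr14:99298691-99315036, plus strand). The peak at its start had 23.8 normalized tags in KO talazoparib, 25.4 in KO DMSO, 14.1 in WT talazoparib and 18.4 in WT DMSO. These are the most even values of the 3 Klf starts, again with both KO lists above both WT lists. The region, chr14:99297807-99299451, has the highest CpG density of all 31, at 8.69 per 100 bp. A peak over a coding exon at 3.05 kb was listed in KO DMSO (9.47 normalized tags) and WT talazoparib (3.10) only. Just outside the counted window, 4307 to 4349 bp beyond its downstream edge, each list held a peak, with 6.47, 6.80, 2.86 and 4.14 normalized tags in KO talazoparib, KO DMSO, WT talazoparib and WT DMSO.

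**Figure D2:**
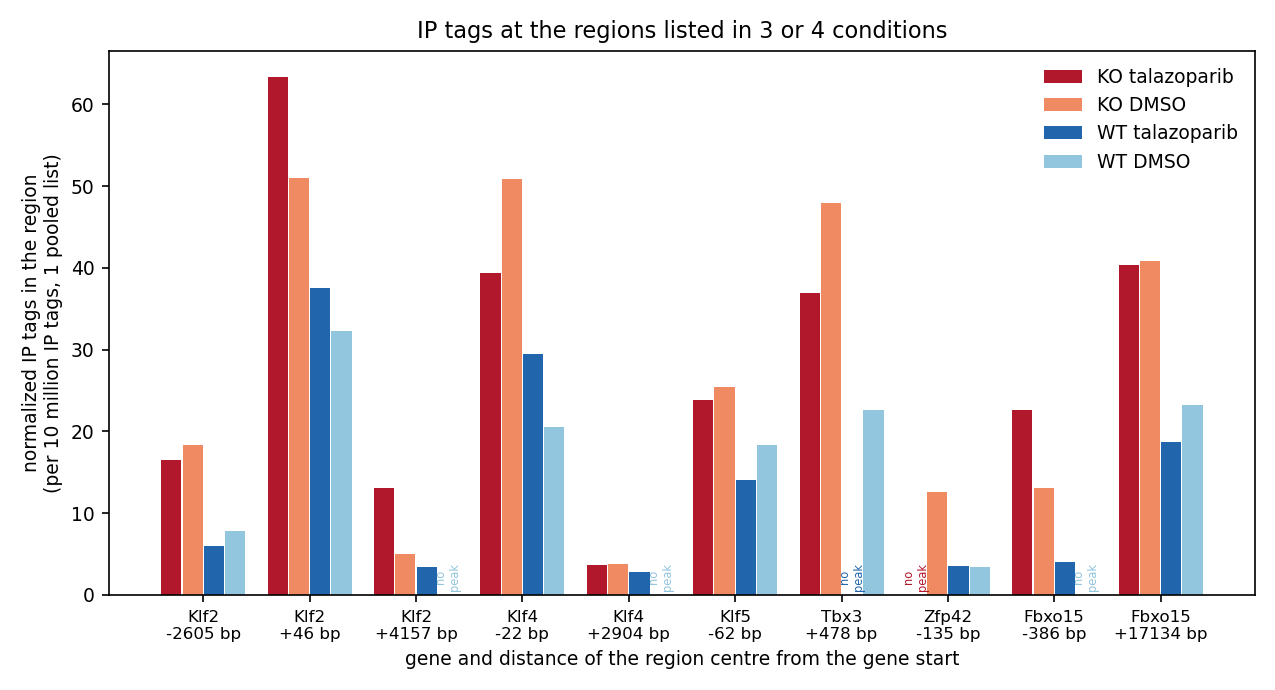
Normalized IP tags (per 10000000 IP tags) at the 10 regions listed in 3 or 4 conditions, with 1 bar per pooled list and no error bars, and the distance of each region's centre from the gene start on the horizontal axis. Both KO bars are above both WT bars at the starts of Klf2 (63.4 and 51.0 against 37.6 and 32.3), Klf4 and Klf5, and "no peak" marks a list without the region. In IP tag density this order held at the Klf5 start but not at Klf2 or Klf4. Over shared regions of the genome the median log2 tag ratio of KO over WT was 0.62 with DMSO and 0.91 with talazoparib.

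Tbx3, a T-box factor, spans 14.1 kb (chr5:119670669-119684724, plus strand), and its lists differed in which regions they held. Its start region, chr5:119669733-119672562, had 36.9 normalized tags in KO talazoparib, 47.9 in KO DMSO and 22.6 in WT DMSO, and no peak in WT talazoparib. The KO DMSO peak, 2637 bp long, also spans the start of the antisense transcript Tbx3os1. The KO talazoparib peak, 1149 bp long, has the highest IP tag density of all 65 peaks, at 8.5 times the genome mean.

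A second strong Tbx3 region lies 10.2 kb into the gene over a coding exon and the start of a further annotated Tbx3 transcript (chr5:119679894-119681781). It was listed in KO DMSO, with 34.1 normalized tags or 236.0 IP tags (207 to 268), and in WT talazoparib, with 13.5 or 113.0 IP tags (93.1 to 136). Neither KO talazoparib nor WT DMSO listed it, so in KO it was listed only with DMSO and in WT only with talazoparib. Its tags in the lists without a peak are not known. A stretch shared by both peaks is shown because it is rich in CpG (chr5:119680676-119680875, plus strand, 5′ to 3′, CpG in capitals). It lies inside the gene and holds 21 CpG in 200 bp and 70.0% GC, between the printed Klf4 and Zfp42 promoters. The whole region is poorer than this part of it, with 4.03 CpG per 100 bp and 55.9% GC.
Tbx3 internal region: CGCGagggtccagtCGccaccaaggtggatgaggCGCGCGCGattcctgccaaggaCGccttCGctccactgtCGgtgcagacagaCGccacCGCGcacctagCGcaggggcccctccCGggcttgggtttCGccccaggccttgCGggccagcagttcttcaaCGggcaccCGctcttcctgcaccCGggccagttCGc

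Downstream of Tbx3, at 15.8 kb from its start, a region showed the same presence: 12.1 normalized tags in KO DMSO and 3.28 in WT talazoparib. Those 2 peaks overlap at one end only. KO DMSO alone listed a peak in the 3′ UTR and one upstream, each of 5.06 normalized tags. The 5 Tbx3 peaks of KO DMSO sum to 104 normalized tags, the highest total at any of the genes in any list. In the other lists Tbx3 summed to 36.9 in KO talazoparib, 16.8 in WT talazoparib and 22.6 in WT DMSO. Beyond the window's downstream edge, by 1095 and 1350 bp, KO talazoparib and KO DMSO each listed a further peak, of 7.98 and 6.43 normalized tags.

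Nr5a2 is the longest gene of the set, at 118 kb (chr1:136842571-136960448, minus strand), and the sparsest. It had 0, 0.235, 0.156 and 0.156 peaks per 10 kb in KO talazoparib, KO DMSO, WT talazoparib and WT DMSO. Each of these is at or below the medians over all protein-coding genes, 0.151, 0.276, 0 and 0.185, except the value for WT talazoparib. None of its peaks lay at the annotated start. The strongest region, chr1:136952580-136954386, lies 6.96 kb into the gene and spans the start of a shorter annotated transcript. It had 21.2 normalized tags in KO DMSO, or 146.5 IP tags (123 to 172), against 4.54 in WT DMSO, or 39.5 IP tags (28.6 to 54.5), and was not listed with talazoparib in either genotype. The KO DMSO peak was 1806 bp long and the WT DMSO peak 500 bp. The bases that both peaks share include the following stretch (chr1:136953890-136954089, minus strand, 5′ to 3′, CpG in capitals). It is shown beside the Nr5a2 promoter and holds 4 CpG and 43.5% GC, against 2 and 44.0% in the promoter stretch. The whole region is richer than this part of it, with 3.49 CpG per 100 bp and 49.8% GC.
Nr5a2 internal region: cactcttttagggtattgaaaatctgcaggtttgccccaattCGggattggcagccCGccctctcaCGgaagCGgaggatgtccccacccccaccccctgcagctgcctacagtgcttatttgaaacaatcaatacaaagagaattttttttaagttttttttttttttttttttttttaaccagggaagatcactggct

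The other 5 Nr5a2 regions were each found in 1 list, with 2.80 to 6.15 normalized tags. KO DMSO held 2 of them, at 11.8 and 19.8 kb from the start, the second over the start of another transcript. WT talazoparib held 2, at 9.08 and 22.9 kb, and WT DMSO 1, at 49.9 kb. No Nr5a2 region was thus shared between a talazoparib list and any other list.

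Zfp42, the Rex1 marker gene, spans 11.9 kb (chr8:43295063-43306980, minus strand) and carried weak peaks in WT. Its largest peak, at the start in KO DMSO, had more tags than 72.2% of that list. At its start, chr8:43306613-43307617, KO DMSO had 12.6 normalized tags or 87.0 IP tags (69.7 to 107). WT talazoparib had 3.52 there and WT DMSO 3.39, each from 29.5 IP tags (20.2 to 42.8), and KO talazoparib had no peak. The WT peaks rested on 0.5 and 3.0 input tags. A region over the coding exon at 11 kb had 3.69 normalized tags in KO DMSO and 3.62 in WT DMSO, and was not listed with talazoparib. KO DMSO alone listed an intronic peak of 7.81.

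Fbxo15, which encodes an F-box protein, spans 46.7 kb of chromosome 18 (chr18:84934782-84981473, plus strand) and had the most regions, 8. Its strongest, chr18:84951088-84952744, lies 17.1 kb into the gene. It spans the starts of an inner Fbxo15 transcript and of the neighbouring Timm21, which encodes a subunit of the mitochondrial protein import machinery. It had 40.3 normalized tags in KO talazoparib, 40.8 in KO DMSO, 18.7 in WT talazoparib and 23.2 in WT DMSO. The KO lists were nearly equal and both well above the WT lists. Since the starts of 2 genes lie in this region, its tags cannot be given to either.

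The annotated start of Fbxo15 itself had 22.6 normalized tags in KO talazoparib, 13.1 in KO DMSO and 4.06 in WT talazoparib, with no peak in WT DMSO. The KO talazoparib peak was 2084 bp long and the KO DMSO peak 853 bp, with densities of 2.87 and 4.07 times the mean, so tags and density order these lists oppositely. The region has 0.964 CpG per 100 bp, the lowest of any start region here. Introns at 9.88 and 20.1 kb held regions in both KO lists and neither WT list, with 4.67 and 5.04 normalized tags in KO talazoparib, against 3.33 and 7.23 in KO DMSO. A KO DMSO peak of 9.54 and 3 WT DMSO peaks of 2.82 to 4.25 were each found in 1 list. Without Fbxo15, an alternative chosen after seeing the data, the KO talazoparib count over the genes became 7 peaks.

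Over the 7 genes, 5 of 31 regions (16.1%) were found in all 4 lists: both Klf2 regions named above, the Klf4 and Klf5 starts and the Timm21 region of Fbxo15. The share over the genome was 9.47% of 60797 merged regions. Regions found in 1 list numbered 14 of 31 (45.2%), against 61.6% over the genome. With a fold of at least 6 the number in all 4 lists was 1, and with lists of equal length it was 2. The share over the genome under these 2 settings was not computed. By condition, 8 regions were found in KO DMSO alone, 2 in WT talazoparib alone, 4 in WT DMSO alone and 0 in KO talazoparib alone. These are 25.8%, 6.45%, 12.9% and 0% of the 31, against 24.8%, 7.10%, 17.9% and 11.8% over the genome, so the KO DMSO and WT talazoparib shares are about those of the genome.

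Each of the 11 regions of KO talazoparib was also in KO DMSO, where the share over the genome was 59.2% of KO talazoparib regions. Conversely, 11 of the 25 KO DMSO regions (44.0%) were in KO talazoparib, against 39.7% over the genome. In WT, 6 of 14 talazoparib regions (42.9%) were in the DMSO list, against 53.9%, and 6 of 13 DMSO regions (46.2%) were in the talazoparib list, against 29.3%. Between genotypes, 9 of 25 KO DMSO regions (36.0%) were in WT DMSO, and 8 of 11 KO talazoparib regions (72.7%) were in WT talazoparib. The genome-wide shares were 41.7% and 33.4%. These shares move with the length of the lists, from 15544 to 35459 peaks.

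The 5 regions found in all 4 lists had a median of 5.94 CpG per 100 bp. The median was 1.60 in the 14 regions of 1 list, 3.49 in the 7 of 2 lists and 1.60 in the 5 of 3 lists, so it did not climb step by step at these genes. Over the genome the medians were 1.40, 1.93, 3.22 and 5.17 for 1, 2, 3 and 4 lists. Over all 31 regions the median was 2.67, against 1.77. The range ran from 0.20 in an Nr5a2 intron to the 8.69 of the Klf5 start. The -2.60 kb region of Klf2 is the exception among those in all 4 lists, with 1.36.

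**Figure D3:**
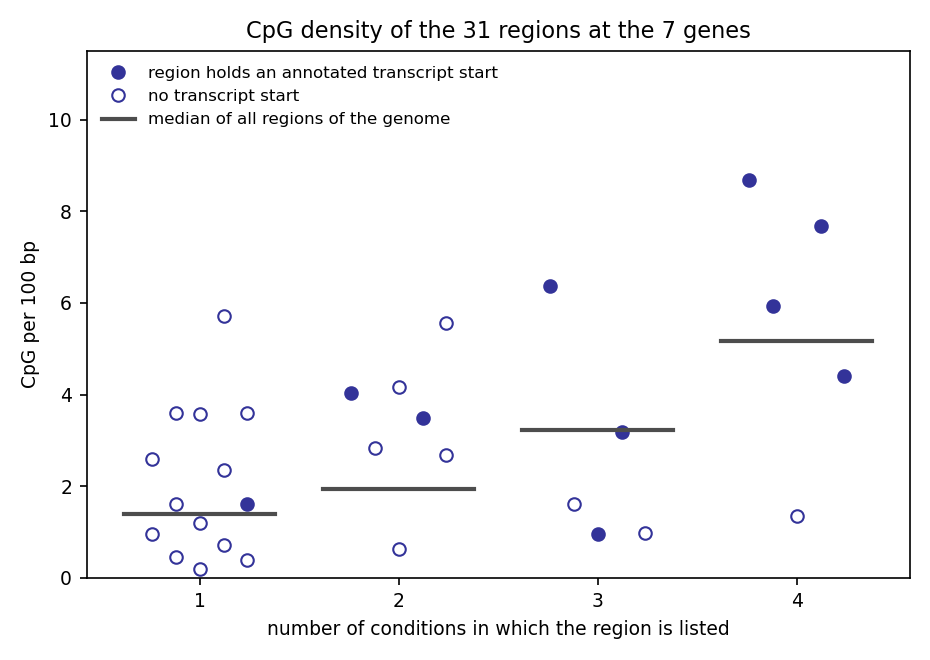
CpG per 100 bp of each of the 31 regions (points) against the number of conditions in which the region is listed, with filled points for regions that hold an annotated transcript start and grey bars for the genome-wide medians of 1.40, 1.93, 3.22 and 5.17 (1 to 4 lists). Of the 5 regions in all 4 lists, 4 hold a transcript start and lie above 4 CpG per 100 bp, and the Klf2 upstream region lies at 1.36.

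Where a region was listed in both conditions of a pair, IP tag density was compared as a log2 ratio, with an exact 95% interval from the IP tags. In the weak regions at 4.16 kb of Klf2 and 2.9 kb of Klf4, 1 such pair of peaks shares the region without overlapping directly. KO DMSO over WT DMSO gave a summed ratio of 0.39 (0.29 to 0.50) over 9 shared regions, and each of the 9 was above 0. The median over the 9 was 0.46. Over the genome 88.0% of 14704 shared regions were above 0, with a median of 0.35, so the direction at these genes is that of most regions. The largest single ratios were at the Zfp42 start, 0.86 (0.25 to 1.51), and the Timm21 region, 0.73 (0.47 to 1.00). Tbx3 had 0.16 (-0.10 to 0.42) and Klf5 0.19 (-0.13 to 0.51) at their starts, both with intervals that include 0. In tags not divided by length the summed ratio was 0.99, since the KO DMSO peaks were longer by a median of 0.73 on the log2 scale, against 0.28 over the genome. The median log2 tag ratio was 1.08 at these regions and 0.62 over the genome.

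KO talazoparib over WT talazoparib gave 0.20 (0.08 to 0.32) over 8 regions, 7 of them above 0. The median over the 8 was 0.56, close to the genome-wide median of 0.64, with 91.6% of 7901 shared regions above 0. The Klf2 start was the one region below 0, at -0.48 (-0.70 to -0.27), lower than all but 0.696% of shared regions. Its KO talazoparib peak was the longer of the pair, with more tags and a lower density, 5.45 against 7.62 times the mean. Input density there was lower in KO talazoparib as well, by -1.18 on the log2 scale, from 21 and 17.5 input tags. The part of input and of peak length in this result was not tested. In tags alone the summed ratio was 0.94, and the median of 0.93 was near the 0.91 of the genome. Within 2 kb of the starts the density ratio was -0.0029.

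WT talazoparib over WT DMSO gave 0.33 (0.20 to 0.46) over 6 regions, of which 4 were above 0 and 2 below, with a median of 0.01. Over 8261 shared regions the median was -0.08. The Klf2 and Klf4 starts carry the sum, at 0.75 (0.51 to 0.99) and 0.77 (0.49 to 1.05), higher than 98.2% and 98.3% of shared regions. The other 4 ran from -0.27 to 0.01, each with an interval that includes 0. Input density at the Klf2 and Klf4 starts was also higher with talazoparib, by 0.74 and 0.63. These came from 17.5 against 23.5 and 12.5 against 15.0 input tags. The peaks were shorter with talazoparib, 1306 against 1887 bp at Klf2 and 1555 against 1852 bp at Klf4, where both lengths are sums of 2 peaks. In tags not divided by length the log2 ratios were 0.22 and 0.51. The part of input and of peak length in this result was not tested. In tags the summed ratio was 0.05, and the median was -0.13, against -0.28 over the genome. With a fold of at least 6 a single shared region was left, at -0.18.

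KO talazoparib over KO DMSO gave 0.08 (-0.02 to 0.17) over 11 regions, 7 above 0 and 4 below. The median was 0.17, the same as over 14004 shared regions of the genome. The Tbx3 start was highest, at 0.82 (0.57 to 1.06), above 96.8% of shared regions. There the normalized tags ran the other way, 36.9 in KO talazoparib and 47.9 in KO DMSO, and input density was higher in KO talazoparib by 1.06. The Klf4 start had 0.36 (0.12 to 0.59), and the Fbxo15 start was lowest, at -0.49 (-0.88 to -0.10). At both, tags not divided by length again ran the other way, with log2 ratios of -0.37 and 0.79. The KO talazoparib and KO DMSO peaks were 1852 and 3063 bp long at Klf4, and 2084 and 853 bp at Fbxo15. Whether the talazoparib ratio differs between genotypes was not tested, and could not be with 1 pooled list per group. The summed ratio was 0.20 without Fbxo15, 0.29 with a fold of at least 6 and 0.37 with lists of equal length.

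**Figure D4:**
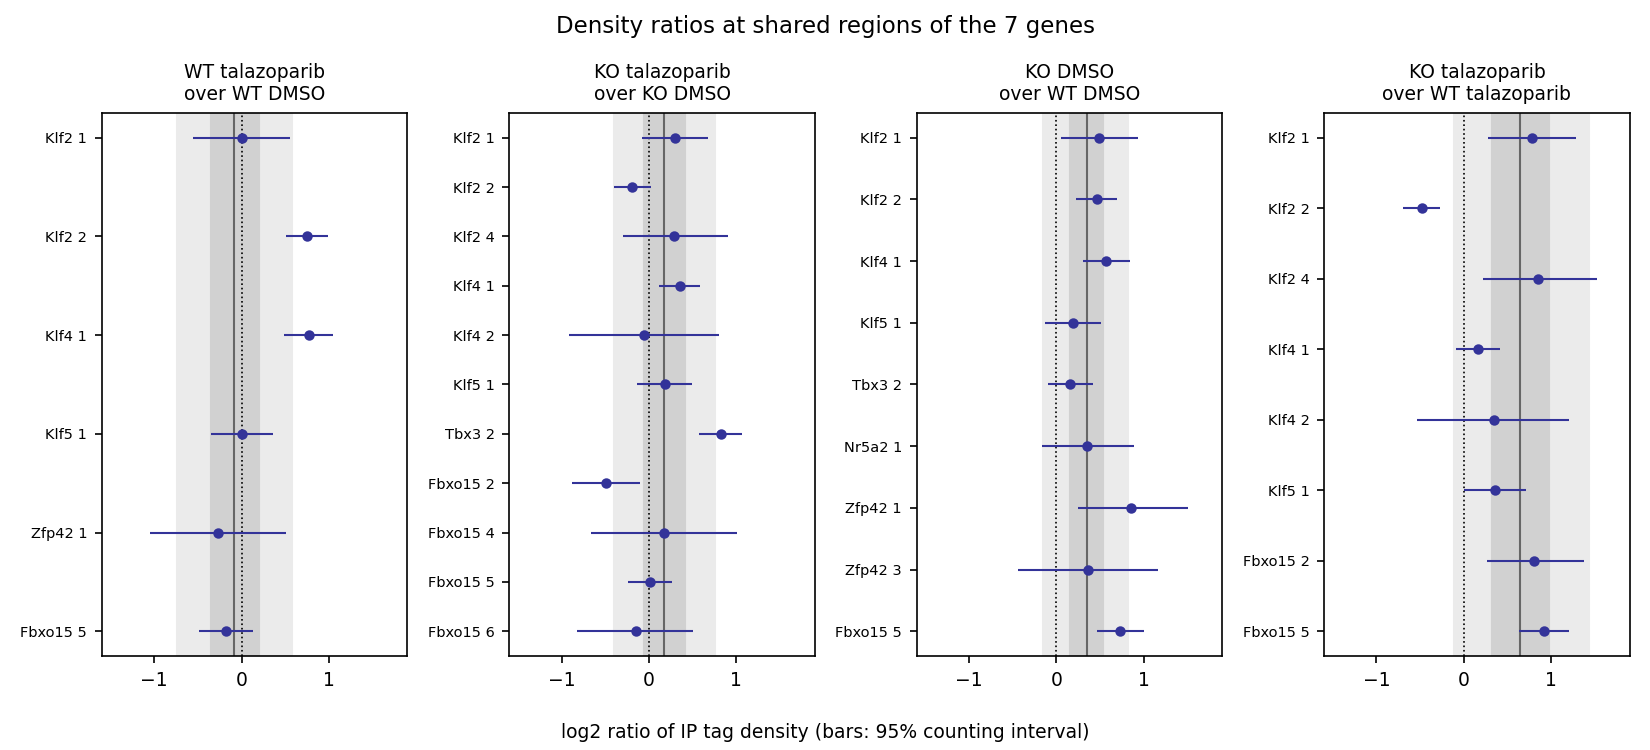
Log2 ratio of IP tag density at each shared region of the 7 genes (points, with 95% counting intervals), 1 panel per pair of conditions, with regions numbered along the direction of transcription. The dark and light grey bands hold the middle 50% and 90% of all shared regions of the genome, and the grey line is their median. The Klf2 and Klf4 starts (Klf2 2, Klf4 1) lie right of the light band for WT talazoparib over WT DMSO, and Klf2 2 lies left of it for KO talazoparib over WT talazoparib.

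Other genes of the network were counted for comparison. Of 26 further naive network genes, 23, 25, 20 and 24 had a peak in KO talazoparib, KO DMSO, WT talazoparib and WT DMSO. Esrrb, an orphan nuclear receptor of the network, held 15, 16, 6 and 11 peaks, Tfcp2l1 held 5, 9, 1 and 3, Pou5f1, which encodes Oct4, held 3, 2, 2 and 5, and Fgf4 held 2, 5, 1 and 4. Of 14 other Klf genes, 13, 12, 10 and 12 had a peak, with most at Klf13, Klf9, Klf3 and Klf16. Of 16 T-box, Nr5a and zinc finger genes listed beside Tbx3, Nr5a2 and Zfp42, 9, 12, 5 and 15 had one. Most peaks were at Tbx2, Zfp41 and Tbx4, with Tbx2 at 1, 4, 0 and 3.

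Genes of other states carried peaks too. Of 14 primed epiblast genes, 14, 14, 7 and 12 had a peak, led by Etv5, Dnmt3a, Nodal and Lef1. Extraembryonic endoderm markers had 10, 8, 5 and 8 of 12, led by Sparc, Lama1 and Hnf4a, and fibroblast markers 5, 6, 4 and 6 of 12, led by Fn1, Col1a1, Pdgfra and Loxl1. The median number of peaks per gene was 1, 3, 2 and 2 at the 7 genes, and 2, 2, 1 and 2 at the naive network. Over all protein-coding genes it was 1, 1, 0 and 1. None of these differences was tested.

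By the summed difference of peak number over the 4 lists, Nr5a2 matched Dppa2 exactly, at 0, 3, 2 and 2 peaks, as did 10 other protein-coding genes, Dppa2 among them. Zfp42 was nearest to Dppa2 as well, at a difference of 1, and Klf4 to Lin28a and Mycn, also at 1. Klf5 was nearest to Dppa5a, Il6st and Lin28a, at 2, and Klf2 to Mycn and Socs3, at 3. Fbxo15 was nearest to Fgf4, at 3, and Tbx3 had no network gene nearer than 4, the distance of Dppa2, Lifr and Nanog. A likeness over 4 small counts is common: 99 other genes had the same counts as Klf5, 26 the same as Klf4 and 2 the same as Tbx3.

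The 65 peaks rest on few input tags. They held 0.5 to 27.5 input tags each, and 2 of 11 in KO talazoparib, 8 of 25 in KO DMSO, 8 of 15 in WT talazoparib and 4 of 14 in WT DMSO had fewer than 3. The shares over the whole lists were 30.0%, 46.5%, 60.7% and 30.9%. Deposited folds ran from 4.02 at the Klf5 start in WT DMSO to 26.4 at an Fbxo15 intron in KO talazoparib, where the input held 0.5 tags. With at least 3 input tags, 7 peaks were left in WT talazoparib. When peaks needed an IP density of 2 or more times the mean, WT talazoparib kept 7 and WT DMSO 8. In the further 5 kb beyond the window, out to 10 kb, 11 peaks lay, the nearest 241 bp past the Klf2 edge in KO talazoparib with 8.88 normalized tags. The nearest inside an edge lay 1618 bp within the Klf2 window in KO DMSO, with 3.98.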

How the data were processed

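The members and gene lists were chosen with earlier results of these data known. All 7 genes are named, with neighbours whose start lies in a counted window, up to 3 naive network genes most like each member and up to 4 genes with most peaks per list (1 such gene is not reported here). Tools named in the submitters' processing notes are HOMER 4.11, Bowtie2 2.3.4.2, R 3.6 and Picard 2.9.2, on mm10. Per the file headers, the 4 deposited tables are HOMER findPeaks lists, 1 per condition, on pooled IP libraries. The authors' filters and caller settings are not given in the sources used here.

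IP signal was deposited as a normalized tag count per 10000000 tags, per the file headers, beside the input signal in tags. The deposited fold is the authors' ratio of IP tags scaled to the input total over input tags. The deposited p-value, peak score and clonal fold score are the authors' as well, and of these 3 the peak score alone entered the report, to order the peaks of a list. IP totals were worked out from the step of 0.5 tags in the low normalized counts, which 100.0% of values met within 0.0051 in each list. The tables do not say which base of a peak its start names.

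Windows, overlaps of 1 bp and merged regions were computed on chromosomes 1 to 19, X and Y with Python 3.11.15 and pandas 2.3.3, and checked on simulated peaks. Density uses 2648 Mb of sequenced bases. Intervals are exact, Poisson for tags and conditional binomial for ratios (scipy 1.17.1). No test between conditions was possible, since no per-library values were used. Where a merged region holds several peaks of a list, their tags and lengths were summed.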

Additional observations from a re-analysis of the deposited data

Results flagged for a closer look

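At 3 of the 31 regions the presence of a peak moved in opposite directions with talazoparib in the 2 genotypes: each was listed in KO DMSO and WT talazoparib, and in neither KO talazoparib nor WT DMSO. They are the Tbx3 exon region at 10.2 kb, with 34.1 normalized tags in KO DMSO and 13.5 in WT talazoparib, the region downstream of Tbx3, with 12.1 and 3.28, and the Klf5 exon region, with 9.47 and 3.10. Over the genome this combination made up 1.78% of 60797 merged regions. A move in either direction was flagged. The reverse combination, KO talazoparib and WT DMSO only, made up 2.47% of the genome and 0 of the 31 regions. The number of peaks moved oppositely at 3 genes. At Klf5 and Tbx3 these numbers include the regions just named, so they are no separate observation there. The share of all genes with such opposite moves was not computed. KO talazoparib minus KO DMSO was -2 at Klf2, -1 at Klf5 and -4 at Tbx3, and WT talazoparib minus WT DMSO was 1 at each of them. The difference between genotypes was not tested, since there is 1 pooled list per condition.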

How the results depend on the processing

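Of 100 values recomputed under other settings, 73 stayed within 1.5 times the count or inside the 95% interval of the ratio, 25 moved further and 2 changed sign. Counting only peaks within 2 kb of the start left 5 peaks in KO talazoparib, 9 in KO DMSO, 6 in WT talazoparib and 6 in WT DMSO, by its narrower window, and turned the KO talazoparib over WT talazoparib density ratio to -0.0029. A fold of at least 6 left 3 genes with a peak in WT DMSO, 6 peaks in KO talazoparib, 15 in KO DMSO and 4 in WT DMSO, and 1 region in all 4 lists. It turned the WT talazoparib over WT DMSO ratio to -0.18, and gave 0.29 for KO talazoparib over KO DMSO, 0.73 for KO DMSO over WT DMSO and 0.52 for KO talazoparib over WT talazoparib. With lists of equal length, peaks numbered 7 in KO talazoparib, 10 in KO DMSO and 7 in WT DMSO, regions in all 4 lists 2, and the KO talazoparib over KO DMSO ratio was 0.37. At least 3 input tags left 7 peaks in WT talazoparib, and a density of at least 2 times the mean left 7 there and 8 in WT DMSO. Tags not divided by length gave ratios of 0.05 for WT talazoparib over WT DMSO, 0.99 for KO DMSO over WT DMSO and 0.94 for KO talazoparib over WT talazoparib. Without Fbxo15, an alternative chosen after seeing the data, KO talazoparib had 7 peaks and its ratio over KO DMSO was 0.20. Genome-wide shares of regions in all 4 lists were not recomputed under these settings. Beyond the stated narrower counts, the cause was not tested. Counting the gene body only, or requiring a larger overlap between peaks, moved no value past these limits. No paired analysis was possible because the lists pool the libraries of a condition and hold no value per library. For the same reason no replicate could be left out. Few input tags per peak limit every fold.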

Other observations

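The deposited clonal fold, a score of the peak caller that entered no result of the report, ran from 0.86 at the Klf2 start in KO talazoparib to 1.49 at a Klf2 downstream peak in KO DMSO over the 65 peaks. Among the gene starts it was 1.48 at Tbx3 in WT DMSO, 1.12 there in KO talazoparib and 1.08 in KO DMSO, while at the Klf5 start it was 0.92 to 0.96 in the 4 lists. What raises it at single peaks was not tested.

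Strand and antisense transcription could not be separated at the Tbx3 start, where the antisense locus Tbx3os1 begins inside the KO DMSO peak, or at the Timm21 region of Fbxo15. Both are places where transcripts start in opposite directions within 1 peak.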
